A study of Mus musculus with 4 samples.

Results

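Chemokines are small secreted proteins that recruit leukocytes, and 7 of their genes, *Ccl1*, *Ccl3*, *Ccl4*, *Ccl5*, *Xcl1*, *Cxcl2* and *Cxcl10*, were followed across the immune cells obtained in a sort for group 2 innate lymphoid cells (ILC2s). The genes were chosen by name as chemokines of lymphoid cells and basophils, with earlier results of these data known. Every entry they had in a pair of cluster marker tables was taken. Their counts beside shares over all genes are therefore descriptions only. All 7 of the 7 genes appeared among the 1679 genes of the table of cell types, and 2 of the 7, *Ccl5* and *Cxcl2*, appeared among the 2629 genes of the table of ILC2 subclusters.

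Liver and lung cells came from BALB/c mice of wild-type genotype, which were male and 8 weeks old by the study's methods. The mice had received PBS or recombinant IL-33 (rIL-33) at 0.5 µg intraperitoneally on each of 5 days, so that PBS liver, PBS lung, rIL-33 liver and rIL-33 lung formed 4 groups of 1 library each. By the study's methods, the tissues of several mice were pooled in each group. IL-33 is an alarmin that activates ILC2s through its receptor ST2. Cells had been sorted as lineage-negative (CD3e, Ly6G, Ly6c, CD11b, CD45R, TER119 and TCRb) and positive for CD127, Thy1 and ST2, and transcript 3' ends were read in droplets with unique molecular identifiers.

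Both tables pooled the 4 libraries and held no value per library. Neither the treatments nor the organs were therefore compared for chemokine expression, no replicate stood behind any value, no test was made, and the depth per cell was unknown. An entry of a table is called a listing: 1 gene whose average was higher in 1 cluster than in all other cells by the authors' marker search. Each listing gave 2 shares of cells above 0, one for the cluster and one for the rest of the cells, and the difference between these shares is stated in percentage points. The tables gave no spread over libraries, so no neighbouring values in an order of cell types can be said to differ. A cell type without a listing had no higher average by the rule of the search, and its own share was not given.

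Before the values are read, their scale needs stating. The authors' adjusted p-values in the cell type table were 2000 times the raw ones throughout, which is the number of features adjusted for. In that table the 7 chemokine genes were above 0 in 45.8% to 81.9% of all cells, and ILC2 genes had larger shares there than in the table of ILC2s alone. For 112 of 116 genes listed for ILC2 in the first table and for a subcluster in the second, the share of ILC2s above 0 was larger in the first, by a median of 16.8 points (range -6.14 to 69.1). The values behind the cell type table may have been batch-integrated, in which case its shares would not be the detection of transcripts. Which values were used was not stated, so differences in that table are given as differences of those values, and shares are not compared across the tables as expression.

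Chemokines act through receptors on the surface of the cells they attract. CCL1 binds CCR8, a receptor of type 2 lymphocytes and regulatory T cells. CCL3, CCL4 and CCL5 are typical products of activated NK cells and cytotoxic T cells, XCL1 attracts the dendritic cells that present antigen to CD8 T cells through XCR1, CXCL2 recruits neutrophils through CXCR2, and CXCL10 is an interferon-induced ligand of CXCR3.

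Positions are from GENCODE on GRCm38, the assembly equal to mm10 for these chromosomes, and all 7 genes were protein-coding. *Ccl1* (ENSMUSG00000020702, chr11:82176657-82305690, minus strand), *Ccl5* (ENSMUSG00000035042, chr11:83525778-83530518, minus strand), *Ccl3* (ENSMUSG00000000982, chr11:83647844-83649355, minus strand) and *Ccl4* (ENSMUSG00000018930, chr11:83662584-83664683, plus strand) lay on chromosome 11. In GENCODE, *Ccl3* and *Ccl4* were divergent neighbours 13.2 kb apart with 0 protein-coding genes between them, and 117.3 kb separated *Ccl5* from *Ccl3*. RefSeq, whose promoters are printed next, differed most for a pair of these genes. It placed *Ccl1* at chr11:82176666-82179812, so that its start lay inside the GENCODE span, and it began *Ccl4* inside *Ccl3* (chr11:83648624-83664683). *Cxcl2* (ENSMUSG00000058427, chr5:90903871-90905938, plus strand) and *Cxcl10* (ENSMUSG00000034855, chr5:92346638-92348889, minus strand) lay on chromosome 5, and *Xcl1* (ENSMUSG00000026573, chr1:164931644-164935527, minus strand) lay on chromosome 1. *Cxcl10* overlapped *Art3* and *Xcl1* overlapped *Gm20743*, both on the opposite strand. Of the 50-base windows within the last 400 bases of the transcripts, 8.73% of those of *Cxcl2* also occurred in *Cxcl3*, and 0% of those of the other 6 genes occurred in another gene.

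Promoter sequence was available for 5 of the 7 genes (*Ccl1*, *Ccl3*, *Xcl1*, *Cxcl2* and *Cxcl10*; not *Ccl4* and *Ccl5*) from RefSeq on GRCm38.p6, the reference strain and not BALB/c. The windows held 300 bases, from 250 before to 50 after the transcript start, and are printed 5′ to 3′ on the gene's strand so that the matches counted below can be seen in place. Capitals mark matches, on either strand, to NF-kB (GGGANNNNCC), AP-1 (TGANTCA), the interferon element ISRE (GAAANNGAAA) and Runx (TGTGGT), where N is any base. The first pair of sequences belongs to *Ccl1* (chr11:82179763-82180062, minus strand) and *Ccl3* (chr11:83649329-83649628, minus strand). The others belong to *Xcl1* (chr1:164935473-164935772, minus strand), *Cxcl2* (chr5:90903649-90903948, plus strand) and *Cxcl10* (chr5:92348840-92349139, minus strand).
Ccl1: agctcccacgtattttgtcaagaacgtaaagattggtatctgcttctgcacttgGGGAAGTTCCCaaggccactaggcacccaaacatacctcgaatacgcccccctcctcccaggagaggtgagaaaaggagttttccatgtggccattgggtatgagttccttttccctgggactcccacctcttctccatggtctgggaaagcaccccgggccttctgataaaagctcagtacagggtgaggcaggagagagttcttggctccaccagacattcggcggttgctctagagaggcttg
Ccl3: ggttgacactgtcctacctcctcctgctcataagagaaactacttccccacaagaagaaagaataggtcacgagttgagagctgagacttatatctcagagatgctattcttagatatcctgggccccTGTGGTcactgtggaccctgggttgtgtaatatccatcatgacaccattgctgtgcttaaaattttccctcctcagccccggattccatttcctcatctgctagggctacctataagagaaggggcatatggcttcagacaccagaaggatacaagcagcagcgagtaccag
Xcl1: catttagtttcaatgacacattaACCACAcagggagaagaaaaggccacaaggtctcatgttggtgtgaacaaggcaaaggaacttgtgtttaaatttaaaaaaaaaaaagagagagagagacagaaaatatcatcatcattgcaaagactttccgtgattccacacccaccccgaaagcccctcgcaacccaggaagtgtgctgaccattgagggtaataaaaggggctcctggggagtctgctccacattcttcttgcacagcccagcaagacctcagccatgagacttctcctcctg
Cxcl2: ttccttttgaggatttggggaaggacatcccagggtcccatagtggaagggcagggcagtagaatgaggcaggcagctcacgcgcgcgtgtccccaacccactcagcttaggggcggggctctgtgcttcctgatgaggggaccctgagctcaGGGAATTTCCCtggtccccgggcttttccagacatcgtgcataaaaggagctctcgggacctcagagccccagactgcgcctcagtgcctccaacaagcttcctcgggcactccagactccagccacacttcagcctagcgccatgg
Cxcl10: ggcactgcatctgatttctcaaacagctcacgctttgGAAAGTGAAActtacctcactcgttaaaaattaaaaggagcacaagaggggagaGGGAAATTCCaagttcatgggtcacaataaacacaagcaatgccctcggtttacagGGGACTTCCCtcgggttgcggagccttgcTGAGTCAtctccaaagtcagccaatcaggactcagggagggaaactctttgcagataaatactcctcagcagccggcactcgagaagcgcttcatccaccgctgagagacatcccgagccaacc

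The NF-kB letters were in 3 of the 5 windows and in 20.7% of 32851 mouse promoter windows of this length. In *Ccl1* and in *Cxcl2* they matched once on each strand, at overlapping positions 1 base apart, starting 196 and 195 bases before the start of *Ccl1* and 97 and 96 bases before that of *Cxcl2*. *Cxcl10* held GGGAAATTCC at 159 and GGGACTTCCC at 103 bases before its start. *Cxcl10* was also the 1 window of 5 with the ISRE letters (GAAAGTGAAA at 213 bases, 3.44% of all promoters) and the 1 window with the AP-1 letters (TGAGTCA at 74 bases, 7.81% of all promoters). The Runx letters were in 2 of 5 windows, *Ccl3* at 122 bases and *Xcl1* at 227 bases, and in 16.8% of all promoters. These matches describe letters only, and binding was not measured in these files.

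The 7 genes had 23 listings in the cell type table, spread over 10 of its 21 cell types. Of the 147 possible pairs of a chemokine gene and a cell type, 15.6% were listed, against 12.5% of pairs over all genes of the table. Per gene this was 3.29 listings against 2.63. The median difference between shares was 18.1 points (range -20.6 to 53.3) over the chemokine listings and 18.4 points (range -42.5 to 93.8) over all 4422 listings, so the chemokine genes as a group sat at the middle of the table. Their spread lay between genes and cell types. The 11 types with no chemokine listing were CD4, CD8_Naive, Endothelium cell, ILC2_2, ILC3, Plasma cell, Prolifelation cell (as spelled in the table), Treg, gdT_Naive, gdT_TypeII and gdT_TypeIII_CD163l1.

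**Figure D1:**
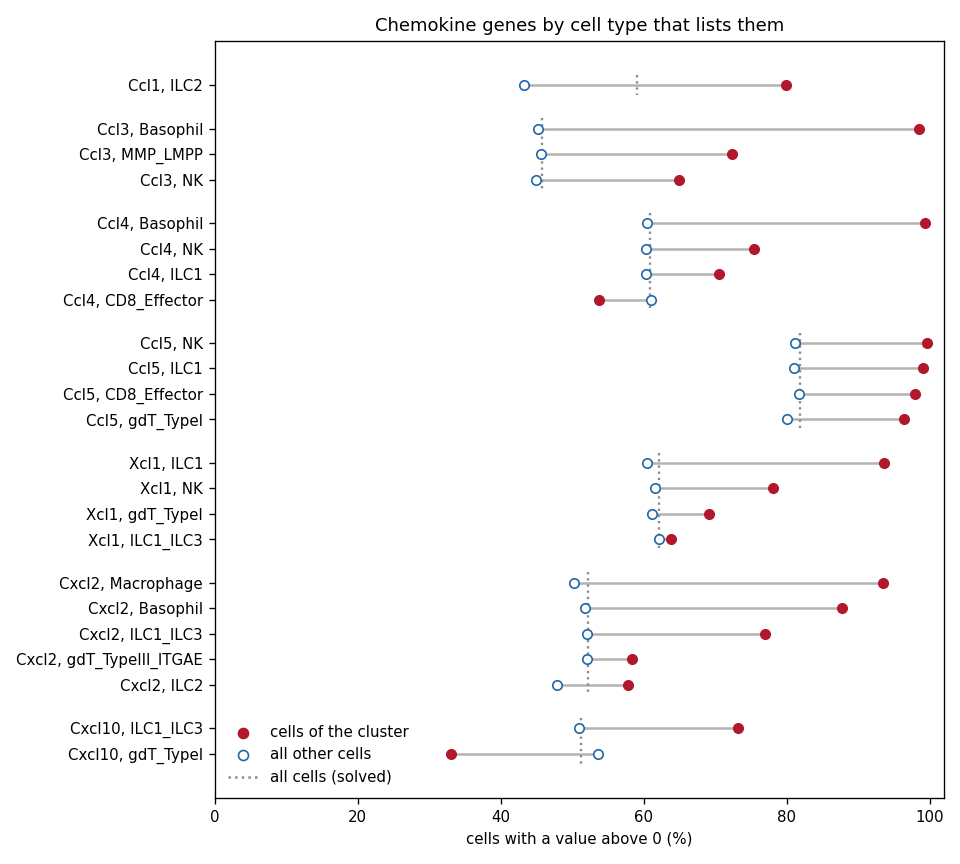
Percentage of cells above 0 (horizontal axis) for each chemokine gene in each cell type that lists it. Filled points are the cells of the type, open points all other cells, and dotted lines the share in all cells solved from both; *Ccl3* and *Ccl4* in basophils reach 98.5% and 99.4%, and the filled point lies left of the open one only for *Ccl4* in CD8_Effector and *Cxcl10* in gdT_TypeI.

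*Ccl1*, the CCR8 ligand, was the gene with a single listing. It was above 0 in 79.9% of ILC2s and in 43.3% of all other cells, a difference of 36.6 points that ranked 15 of the 136 genes listed for ILC2 by this difference. ILC2 held 43.2% of all cells and 58.4% of the cells above 0 for *Ccl1*. Its defining markers were complete, with 8 of 8 ILC2 marker genes listed, among them *Gata3*, *Il1rl1*, *Il5* and *Il13*. Among all genes of the table, 8.10% were listed for ILC2, against 2 of the 7 chemokine genes, *Ccl1* and *Cxcl2*. The minor type ILC2_2 listed neither of them.

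Genes listed for ILC2 and for no other type numbered 18 besides *Ccl1*. The 3 whose difference in shares was closest to that of *Ccl1* were *Tmem158*, *Cntnap2* and *Zcchc10*, at distances of 2.70, 2.90 and 6.10 points over this 1 cell type. *Ccr8*, the receptor of CCL1, was listed for ILC2 at 46.1% against 32.6% and for ILC2_2 at 61.8% against 38.0%. Thus ILC2 was the type that listed both the ligand and its receptor, and ILC2_2 listed the receptor alone.

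The CC chemokine genes *Ccl3*, *Ccl4* and *Ccl5* met in NK cells. NK listed 4 of the 7 chemokine genes, these 3 and *Xcl1*, against 11.7% of all genes of the table, and 10 of 10 ILC1 or NK marker genes, of which *Tbx21* had about the same share inside (51.1%) and outside (51.8%). The 4 differences in NK were alike, between 15.0 and 20.0 points, and ranked from 38 (*Ccl3*) to 64 (*Ccl4*) of 197 genes listed there. NK cells made up 3.66% of all cells.

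*Ccl3*, which codes for macrophage inflammatory protein 1 alpha, had the widest difference among the listings of the 7 genes. It was above 0 in 98.5% of basophils and in 45.2% of all other cells, 53.3 points apart, and ranked 60 of 275 genes there. In MMP_LMPP, a type named after early progenitors, the shares were 72.4% and 45.7%. In NK they were 65.0% and 45.0%. The order was thus basophils, MMP_LMPP and NK, and the share in basophils was 2.15 times that in all cells. Because these 3 types were small, they held 8.11% of the cells above 0 for *Ccl3*, and cells of the types without a listing were above 0 in 44.3%. MMP_LMPP listed 1 of the 7 chemokine genes, against 24.0% of all genes, and also 2 of 6 B lineage markers, *Cd79a* at 76.4% against 27.8% and *Ighm* at 91.1% against 65.1%. The part of these B lineage genes in the *Ccl3* value was not tested.

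*Ccl4*, the gene of macrophage inflammatory protein 1 beta, was above 0 in 99.4% of basophils and in 60.5% of all other cells. Shares fell in order to 75.4% against 60.4% in NK and 70.5% against 60.4% in ILC1. The fourth listing, CD8_Effector, went the other way by share: 53.7% of these cells were above 0 and 61.0% of all others, a difference of -7.30 points. The listing itself was for a higher average. Of the 94 genes listed for CD8_Effector, 57 (60.6%) had a smaller share inside than outside.

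*Ccl5* codes for RANTES, which attracts T cells and monocytes. It was above 0 in 81.9% of all cells in this table, which left little room above it. The shares were 99.6% against 81.2% in NK, 99.1% against 81.0% in ILC1, 98.0% against 81.8% in CD8_Effector and 96.5% against 80.0% in gdT_TypeI. All 4 shares lay close together, their ratio to the share in all cells was 1.18 to 1.22, and cells of types without a listing were still above 0 in 77.7%. *Ccl5* ranked 6 of 94 in CD8_Effector and 9 of 145 in gdT_TypeI, higher than in ILC1 (36 of 145) and NK (43 of 197). In the same order, its differences were 16.2, 16.5, 18.1 and 18.4 points. The median differences over all listed genes were -3.85, 5.50, 10.9 and 10.5 points, so these ranks come from unlike lists. CD8_Effector listed 2 of the 7 chemokine genes, *Ccl4* and *Ccl5*, against 5.60% of all genes, together with 6 of 6 CD8 T markers and 6 of 10 ILC1 or NK markers, of which *Ifng* had the smaller share inside (46.8% against 58.5%). *Cd3e* of the T cell receptor complex was listed for CD8_Effector (96.1% against 83.4%) and gdT_TypeI (97.4% against 81.6%). It was also listed for CD4, CD8_Naive, ILC3, Treg, gdT_Naive, gdT_TypeIII_CD163l1 and gdT_TypeIII_ITGAE. The sort had excluded cells with CD3e on the surface.

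*Xcl1*, the gene of lymphotactin, was led by ILC1. It was above 0 in 93.7% of ILC1 cells and in 60.5% of all other cells, 33.2 points apart, and only 1 of the 145 genes listed for ILC1 had a wider difference. NK followed with 78.1% against 61.6%, gdT_TypeI with 69.2% against 61.2% and the mixed type ILC1_ILC3 with 63.9% against 62.1%. The last difference, 1.80 points, ranked 217 of 225. ILC1 listed 3 of the 7 chemokine genes (*Ccl4*, *Ccl5* and *Xcl1*) against 8.64% of all genes, and 7 of 10 ILC1 or NK markers, without *Eomes*, *Gzma* and *Gzmb*. gdT_TypeI, a type of gamma delta T cells, also listed 3 of the 7 (*Ccl5*, *Xcl1* and *Cxcl10*) against 8.64%, with 5 of 10 ILC1 or NK markers and 3 of 6 CD8 T markers. Of these markers, *Eomes* (62.0% against 65.2%), *Prf1* (53.9% against 62.0%) and *Trac* (64.8% against 71.9%) had the smaller share inside gdT_TypeI.

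Basophils listed 3 of the 7 chemokine genes, *Ccl3*, *Ccl4* and *Cxcl2*, against 16.4% of all genes. Their defining markers were plain, since 8 of 8 basophil genes were listed, among them *Ms4a2* (98.2% against 4.40%), *Mcpt8* (98.2% against 12.8%) and *Gata2* (99.1% against 6.20%). The difference of *Ccl3*, 53.3 points, lay below those of these 3 markers. It also lay below those of *Cd200r3* (75.5 points), *Cpa3* (66.8 points) and *Hdc* (61.0 points), and above those of *Fcer1a* (50.7 points) and *Il4* (47.7 points). *Ccl3* ranked 60 of 275 genes, and *Ccl4* and *Cxcl2* ranked 105 and 124. Basophils also listed *Gzmb*, *Il13* and *Cd14*, of the lists for NK cells, ILC2s and macrophages. Basophils held 1.07% of all cells, and so 2.30% of the cells above 0 for *Ccl3*, 1.75% for *Ccl4* and 1.80% for *Cxcl2*.

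*Cxcl2*, the neutrophil attractant, was listed for the most types. It was above 0 in 93.5% of Macrophage cells against 50.2% of all others, in 87.8% of basophils against 51.8% and in 77.0% of ILC1_ILC3 cells against 52.1%. The other two listings were narrower, with 58.4% against 52.1% in gdT_TypeIII_ITGAE and 57.8% against 47.9% in ILC2. Its highest shares were thus in Macrophage and basophils, while the largest part of its cells above 0, 47.9%, lay in ILC2, the largest type. The ILC2 difference ranked 118 of 136 and the macrophage difference 131 of 291. Macrophage listed 1 of the 7 chemokine genes, against 17.3% of all genes, and 3 of 7 macrophage markers (*Lyz2*, *Cd68* and *Cd14*). *C1qa*, *C1qb*, *Adgre1* and *Csf1r* had no listing for any type. Macrophage also listed the B lineage marker *Ighm* (96.6% against 63.7%), *Ccr9* (93.3% against 52.3%), *Bst2* (97.9% against 56.7%) and *Irf7* (92.3% against 54.4%), and the part of these genes in the *Cxcl2* value was not tested. gdT_TypeIII_ITGAE listed 1 of the 7, against 11.7%.

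*Cxcl10*, the interferon-induced gene, was listed for ILC1_ILC3 and gdT_TypeI with opposite shares. ILC1_ILC3 cells were above 0 in 73.2% against 51.0% of all others. gdT_TypeI cells were above 0 in 33.0% against 53.6%, a difference of -20.6 points that was the lowest of all 145 genes listed there. In gdT_TypeI, 40 of 145 genes (27.6%) had a smaller share inside than outside. ILC1_ILC3 listed 3 of the 7 chemokine genes (*Xcl1*, *Cxcl2* and *Cxcl10*) against 13.4% of all genes, with 2 of 10 ILC1 or NK markers and 3 of 6 ILC3 markers. *Cxcl10* was the 1 gene of the 7 whose listed types held a smaller part of its cells above 0 (8.41%) than of all cells (12.3%).

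**Figure D2:**
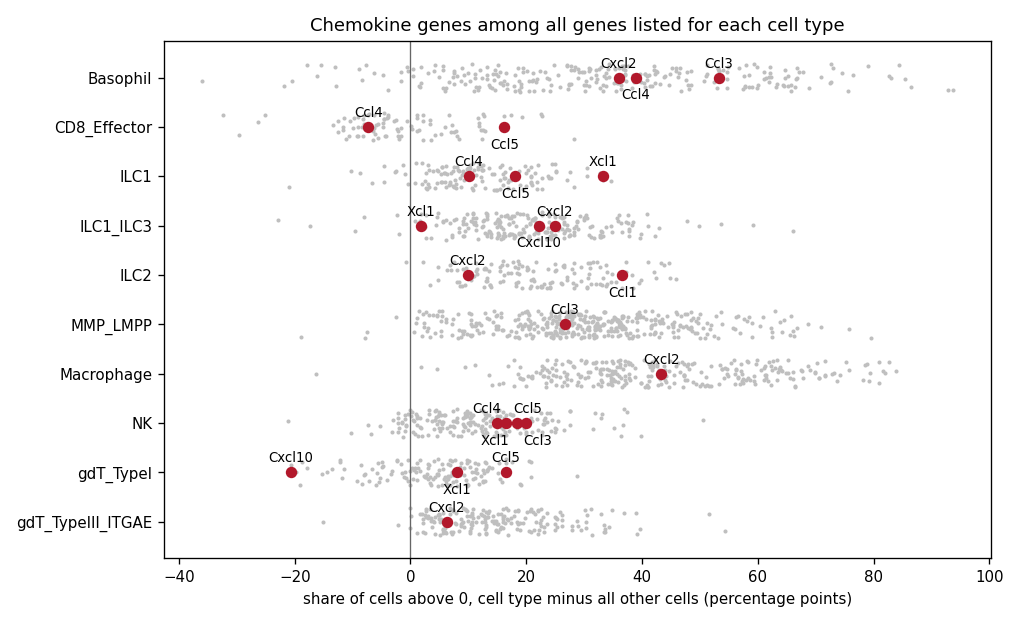
Difference between the share of cells above 0 in a cell type and in all other cells (percentage points, horizontal axis) for every gene listed for the 10 cell types with a chemokine listing. Grey points are all listed genes, spread vertically at random within a type, and red points the chemokine genes; *Xcl1* lies at the upper end in ILC1 (33.2) and *Cxcl10* at the lower end in gdT_TypeI (-20.6).

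Of 719 listings with a smaller share inside than outside, 16.3% of the table, the chemokine genes had 2 of their 23. Both are the values just given, *Ccl4* in CD8_Effector and *Cxcl10* in gdT_TypeI. In the other 21 listings, a higher average went with a larger share of cells above 0.

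Solved cluster sizes made it possible to ask where the cells above 0 lay. The listed types held 60.2% of the cells above 0 for *Cxcl2* and 58.4% for *Ccl1*, in both cases mostly or wholly ILC2. They held 25.6% for *Xcl1*, 24.9% for *Ccl5*, 12.5% for *Ccl4*, 8.41% for *Cxcl10* and 8.11% for *Ccl3*. Among the types that listed *Ccl5* and *Xcl1*, the largest part was gdT_TypeI, with 13.8% and 13.0%, although ILC1 and NK had the higher shares. Types without a listing could hold larger parts, and for *Ccl5* ILC2 did, since at least 59.2% of its cells were above 0 and it was the largest type. gdT_TypeI held 11.7% of all cells, ILC1 4.84% and NK 3.66%. In this table, therefore, most cells above 0 for *Ccl3*, *Ccl4*, *Ccl5*, *Xcl1* and *Cxcl10* lay in types that did not list the gene. The types listing each of these genes held 5.12% (*Ccl3*) to 20.9% (*Ccl5*) of all cells, so this was nearly given by size. Since these shares may not be the detection of transcripts, the parts do not say which types expressed the gene.

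**Figure D3:**
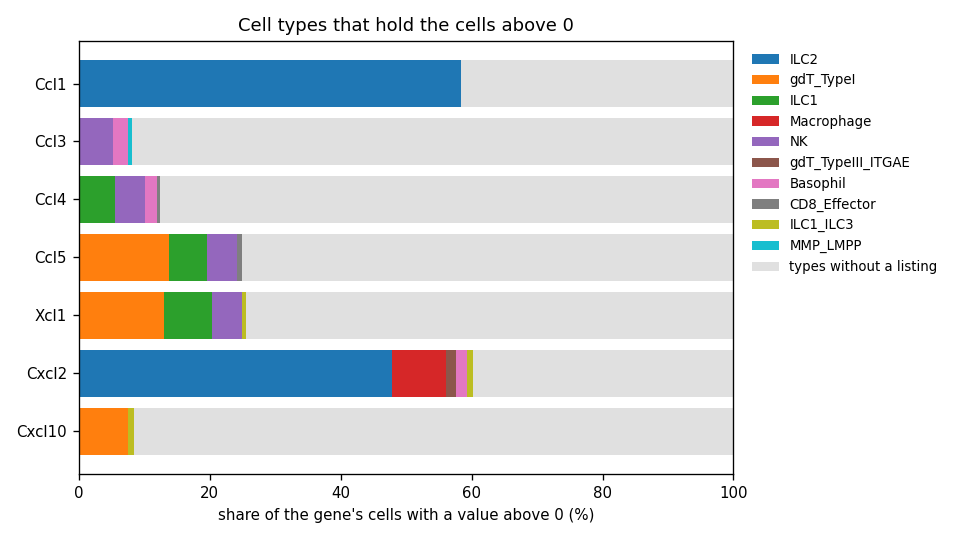
Where the cells above 0 for each chemokine gene lie (% of those cells, horizontal axis), by cell type, solved from the shares and cluster sizes. Coloured parts are types that list the gene and the grey part is all other types together; the coloured part is largest for *Cxcl2* (60.2%) and *Ccl1* (58.4%), where blue is ILC2.

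Pairs of chemokine genes shared listings to different extents. *Ccl4* and *Ccl5* had 3 types in common of the 5 listing either gene (CD8_Effector, ILC1 and NK). *Ccl5* and *Xcl1* also had 3 in common of 5 (ILC1, NK and gdT_TypeI). *Xcl1* and *Cxcl10* had 2 in common of 4, ILC1_ILC3 and gdT_TypeI. The neighbouring genes *Ccl3* and *Ccl4* had 2 in common of 5, basophils and NK, which was 2 of 3 types for *Ccl3* and 2 of 4 for *Ccl4*. *Ccl1* had 1 type in common with *Cxcl2* and 0 with the others, and *Ccl5* and *Cxcl2* had 0 in common of 9. All these genes were measured in the same cells, and the overlaps are given as description.

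Genes with the most similar listings were found by the overlap of the listing types (shared types divided by the types of either gene) and then by the distance between differences in shares, over 2 to 7 types for all genes but *Ccl1*. *Gimap7*, *Klrc2* and *Klrc1* had exactly the 4 types of *Ccl5*, at distances of 9.33, 11.6 and 14.2 points. *Klrc1* and *Klrc2* code for receptors of the NKG2 family. *Spry2* and *Gem* had the 4 types of *Xcl1*, at 8.98 and 18.2 points, and *Il2rb*, a chain of the IL-2 and IL-15 receptors, had these and CD8_Naive. *Plek*, *Pim3* and *Cd244a* had 3 of the 4 types of *Ccl4*, without CD8_Effector, and lay 6.29, 7.83 and 13.4 points from it.

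*Itgam*, which codes for CD11b, had the 3 types of *Ccl3*, but with a distance of 34.3 points its values were far from those of *Ccl3*. *Angpt1* (overlap 0.750) and *Emilin2* (overlap 0.667) followed. For *Cxcl2*, *Lmna* and the AP-1 gene *Fosb* had an overlap of 0.571. *Socs1*, an interferon-induced inhibitor of cytokine signalling, was nearest to *Cxcl10* with an overlap of 0.667 and a distance of 11.3 points, ahead of *Nr4a3* and *C4b* at 0.500.

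Within ILC2s the picture was narrower. The second table compared each of 10 subclusters, numbered from 0, with the other ILC2s. *Ccl5* had 3 listings and *Cxcl2* had 1, which made up 5.71% of the 70 pairs of a chemokine gene and a subcluster. Over genes with at least 1 listing in this table, 14.2% of pairs were listed, and for *Ccl5* and *Cxcl2* alone it was 4 of 20 pairs (20.0%). *Ccl1*, *Ccl3*, *Ccl4*, *Xcl1* and *Cxcl10* were listed for no subcluster, so *Ccl1*, listed for ILC2 among all cells, had no listing that separated ILC2 subclusters. A gene missing here may also have been above 0 in too few ILC2s to enter the search. The 4 differences had a median of 16.8 points (range 9.40 to 20.8), against 13.3 points (range -48.9 to 67.4) over all 3745 listings. All 4 had the larger share inside, as had nearly all genes listed for these 4 subclusters: the smaller share was inside for 0 of 363 genes in subcluster 1, 14 of 237 in subcluster 3, 0 of 802 in subcluster 4 and 0 of 253 in subcluster 8.

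In subcluster 4, 62.6% of cells were above 0 for *Ccl5*, against 41.8% of the remaining ILC2s. The shares were 60.7% against 43.6% in subcluster 8 and 51.2% against 41.8% in subcluster 1. Subcluster 4 and subcluster 8 lay close together and subcluster 1 below them, and 38.9% of the ILC2s of the other 7 subclusters were above 0. The listing for subcluster 8, which held 0.668% of ILC2s, was the 1 of 4 whose adjusted p-value in the authors' table was not below 0.05. By size the order turned: subcluster 1, with 20.1% of ILC2s, held 23.5% of the cells above 0 for *Ccl5*, subcluster 4 held 13.2% and subcluster 8 held 0.928%. *Ccl5* ranked 676 of 802 genes in subcluster 4, 313 of 363 in subcluster 1 and 159 of 253 in subcluster 8, in the lower part of each list. Over all genes of this table, 30.5% were listed for subcluster 4, 13.8% for subcluster 1 and 9.62% for subcluster 8, each of which listed 1 of the 7 chemokine genes.

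In subcluster 3, 29.1% of cells were above 0 for *Cxcl2*, against 12.5% of the remaining ILC2s. This was 1.94 times its share in all ILC2s (15.0%), and subcluster 3, with 14.9% of ILC2s, held 29.0% of the cells above 0. The difference of 16.6 points ranked 25 of 237. Subcluster 3 listed 1 of the 7 chemokine genes, against 9.01% of all genes of the table.

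**Figure D4:**
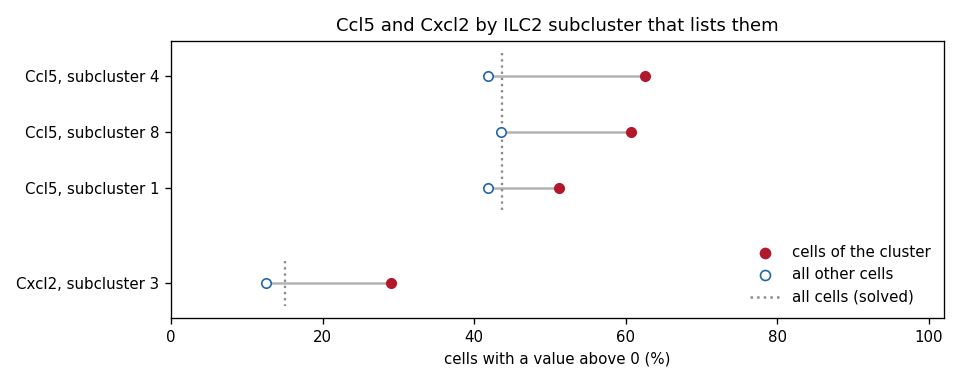
Percentage of ILC2s above 0 (horizontal axis) for *Ccl5* and *Cxcl2* in each ILC2 subcluster that lists them. Filled points are the cells of the subcluster, open points all other ILC2s, and dotted lines the share in all ILC2s; *Ccl5* reaches 62.6% in subcluster 4 and *Cxcl2* 29.1% in subcluster 3.

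Similar genes in the second table were *Ccr4*, *Car5b* and *Lcp1* for *Ccl5*, each listed for subclusters 1, 4 and 8 alone and within 3.78 to 5.28 points of it. CCR4 is a receptor of type 2 lymphocytes, and *Ccr4* was above 0 in 46.2% of subcluster 4 against 19.5%, in 37.1% of subcluster 8 against 21.8% and in 31.2% of subcluster 1 against 19.6%. For *Cxcl2*, *Ppp1r15a*, *Csrnp1* and *Zfp36l1* had differences within 0.200 points of its own, among 46 genes listed for subcluster 3 alone. *Ccr8* was listed for subcluster 3 as well (46.6% against 31.4%). Macrophage and B lineage markers had no listing among ILC2 subclusters, and *Il4* in subcluster 7 was the 1 of 8 basophil markers with one, so none of the 4 subclusters with a chemokine listing listed a marker of these types. Subcluster 4, where *Ccl5* had its largest share, listed 2 of 10 ILC1 or NK markers, *Gzma* (25.8% against 9.70%) and *Nkg7* (30.5% against 11.7%). *Nkg7* was also listed for subcluster 7 (40.0% against 13.0%) and subcluster 5 (26.3% against 12.9%), neither of which listed *Ccl5*. The part of *Gzma* and *Nkg7* in the *Ccl5* value was not tested.

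The tables differed on the same genes. *Cxcl2* was above 0 in 57.8% of ILC2s by the first table and in 15.0% by the second. For *Ccl5*, which ILC2 did not list, the share in ILC2s of the first table could be bounded and was at least 59.2%, against 43.7% in the second. The set of cells may also have differed, since cells with markers of other lineages were removed before subclustering. ILC2 held 43.2% of all cells and the minor type ILC2_2 held 1.78%. The part of the cell set in the differences between both sets of shares was not tested.

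Of 28 other chemokine genes, 2 were listed for a cell type and 1 for a subcluster. *Ccl6* was above 0 in 97.9% of basophils against 32.7% and in 97.8% of Macrophage cells against 30.3%, and *Ccl9* in 97.3% of basophils against 32.6%. These differences of 64.7 to 67.5 points were wider than that of *Ccl3*, the widest of the 7. *Ccl6* and *Ccl9* lie between *Ccl5* and *Ccl3* on chromosome 11. *Ccl24*, a ligand of CCR3, was above 0 in 26.2% of subcluster 4 against 6.70%.

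Among 22 chemokine receptor genes, 16 were listed for a cell type and 8 for a subcluster. Basophils listed *Ccr1* (72.8% against 16.1%), a receptor of CCL3 and CCL5, *Ccr3* (77.9% against 16.0%), a receptor of CCL5, and *Cxcr2* (82.4% against 36.5%), the receptor of CXCL2. *Cxcr3*, the receptor of CXCL10, was listed for 5 types. Both types that listed *Cxcl10* were among them, with 88.0% against 65.9% in ILC1_ILC3 and 72.8% against 65.1% in gdT_TypeI. The others, ILC1 (75.4% against 65.6%), ILC3 (73.5% against 65.9%) and gdT_TypeIII_CD163l1 (71.8% against 66.0%), did not list *Cxcl10*. *Xcr1*, the receptor of XCL1, had no listing in either table.

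Interferon response genes were set beside *Cxcl10* and *Ccl5*. Of 20 such genes, 13 were listed in each table. gdT_TypeI listed 6 (*Irf1*, *Irf7*, *Ifit1*, *Socs1*, *Gbp4* and *Igtp*), all with a smaller share inside than outside, such as *Ifit1* (22.5% against 37.7%) and *Irf7* (45.4% against 57.6%). Over all genes, 8.64% were listed for gdT_TypeI. A smaller share inside was not particular to this type or to these genes: the 6 interferon genes listed for gdT_Naive, the 4 for ILC2_2 and the 3 for CD4, none of which listed *Cxcl10*, also all had it, and so had 74.5%, 53.0% and 76.3% of all genes listed for these types. ILC1_ILC3 listed 1, *Socs1*, at 88.5% against 77.2%. Among ILC2 subclusters, subcluster 8 listed 12 of the 20, among them *Gbp4* (71.9% against 27.9%) and *Igtp* (57.3% against 13.7%), against 9.62% of all genes. *Ccl5* was listed for this subcluster and *Cxcl10* was not.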

How the data were processed

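Droplet-based single-cell RNA sequencing of sorted ILC2s covered 4 libraries, 1 per group, with groups taken from the labels. By the study's methods, the authors aligned reads to mm10 with Cell Ranger, removed doublets and dead cells by flow cytometry, excluded immune cells with few detected genes, log-transformed counts scaled per cell, clustered cells in Seurat and listed markers with FindAllMarkers. No computational doublet caller was described for these cells. The deposited marker tables gave, as a fraction to 3 decimals, the share of cells above 0 inside and outside each cluster. Which Seurat assay each table used was not stated.

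The authors' log2 fold changes and p-values are their own comparisons and are not reported. Read from the deposited tables were only that the lowest log2 fold change was 0.25 in both, that the largest raw p-value was 0.0095 (cell types) and 0.0096 (subclusters), the ratio of adjusted to raw p, and whether an adjusted p was below 0.05. In every listing at least 25.0% of cells on one side were above 0.

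A gene has 1 share in all cells, and each of its listings gives that share as the share outside plus the cluster's size times the difference between both shares. Cluster sizes were solved from genes with at least 2 listings by least squares, after a test on simulated data. They summed to 100.1% and 100.2%. Parts of cells above 0 and shares in types without a listing follow from these sizes. All listings of the 7 genes are named, with the 3 most similar genes each except where an item is not reported here (root mean square distance, a missing listing taken as a difference of 0), and list genes by counts and examples. The genes and lists were chosen with earlier results of these data known, and the B lineage genes of MMP_LMPP and the further genes of Macrophage were named after their values were seen. Background percentages are of genes listed for at least 1 cluster of a table. Alternatives varied the listing rule and the size fit. Python 3.11.15, numpy 2.4.6, scipy 1.17.1, pandas 2.3.3 and matplotlib 3.10.9 were used.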

Additional observations from a re-analysis of the deposited data

How the results depend on the processing

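The 23 chemokine listings of the cell type table became 21 when the share inside had to exceed that outside, 20 with a difference of at least 0.05 and 17 with at least 0.1. For the 4 subcluster listings these rules left 4, 4 and 3. An adjusted p-value under 0.05 in the authors' tables, a rule chosen after seeing the data, left 23 and 3, the listing lost being that of *Ccl5* in subcluster 8. Other size fits (genes listed for at least 3 clusters, sizes constrained to sum to 1, least absolute deviations) moved no size by more than 0.032 points, and 93 of 93 sizes, 36 of 36 shares in all cells and 27 of 27 parts of cells above 0 stayed within 0.1 points. No paired analysis was possible because the pooled tables did not separate the libraries, and for the same reason no library could be left out. Depth was unknown, so no limit of detection could be set for a gene without a listing.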
